A study of Homo sapiens with 21 samples.

Results

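Circular RNAs (circRNAs) made from the genes of membrane transporters were described in FaDu cells, an established line from a hypopharyngeal squamous cell carcinoma. A circRNA was taken as a transporter circle by the name of its host gene. The names were those of solute carriers (SLC or SLCO), ATP-binding cassette genes (ABC families A to G) and subunits of the vacuolar proton pump (ATP6V). P-type ATPases were taken where a digit follows the A or B, as in ATP2B1, along with the ATP8 and ATP11 flippases. Names such as ATP7A and ATP9A fall outside the rule. The rule found 174 circles of 85 host genes, out of 8714 circles of 3809 named hosts (2.00% of the circles), and 234 of the 14885 listed sites of N6-methyladenosine (m6A, a methyl mark on RNA). The rule works by name and took in 3 hosts that are not membrane transporters: ABCE1, which acts in ribosome recycling, the pseudogene ABCA11P and the antisense gene SLC16A1-AS1.

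The study lowered IGF2BP3, which binds m6A-marked RNA, in cells named sh3-1 and sh3-2, both labelled as IGF2BP3 knockdown and taken from their names as separate hairpins, and set them against cells named shCtr, labelled as wild type with a blank control treatment. CircRNA libraries were made from 3 samples each of sh3-1, sh3-2 and shCtr, lettered A to C. MeRIP libraries, in which an antibody against m6A enriches marked RNA fragments beside an input library, were made in 6 pairs from sh3-2 and shCtr, 12 libraries in all, and m6A in sh3-1 was not analysed here. All groups are the same cell line, and the labels do not say that the samples of a group are separate cultures or clones. The p-values that compare circRNA counts of a hairpin with shCtr reflect the spread among libraries, part of which may be technical. The m6A sheets give no value per library, so the spread behind the authors' m6A values is not known.

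A circRNA forms when the splicing machinery joins the end of an exon to the start of the same or an earlier exon, and it is counted by reads that cross this back-splice junction. Circles lack free ends, are usually long-lived, and mostly stay rare beside the linear transcript of their host. Several circles of a host often share a junction end, where a splice site is joined to alternative partners. Transporters move ions, metals, amino acids, sugars, lipids and drugs across membranes: ABC proteins and P-type pumps use ATP directly, the vacuolar pump acidifies endosomes and lysosomes, and most solute carriers run on gradients. m6A is read by proteins such as IGF2BP3, best known for binding marked messenger RNAs and prolonging their life.

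The 9 libraries held between 3775 and 5846 junction reads, with the fewest in sh3-2 (3775 to 4168, against 5502 to 5818 in shCtr). Circles of IGF2BP3 itself had 5, 1 and 0 reads in sh3-1 A, B and C, 3, 6 and 0 in sh3-2 and 6, 2 and 0 in shCtr. Those reads do not measure the messenger RNA, so the knockdown was not checked here. Of 13 squamous epithelial markers only EGFR had circles (4 reads, all in shCtr), and no fibroblast or immune marker of 4 and 3 listed had any, so circRNA reads say little about the cell type. A pair of sh3-1 libraries, A and B, shared 35.05% of their circles and sh3-2 B and C shared 27.9%, while the other 34 pairs of libraries shared 11.2% to 17.7%. No pair agreed within sampling noise (chi-square test of counts, largest p = 2.85e-05), which does not show that the libraries come from separate cultures. Each was counted as a sample because the labels list it as one. Of the circles read in that sh3-1 pair and nowhere else, 5 were transporter circles, and the sh3-2 pair had 3.

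Transporter circles were rare and scattered. They held 697 of 45285 junction reads (1.54%), with a median of 3 reads per circle summed over all 9 libraries, the same median as the circles of other hosts. The most-read transporter circle reached 21 reads, against 813 for the most-read circle of another host, a maximum over a far larger set of 8540 circles. No transporter circle was read in all 9 libraries (0%), where 77 circles of other hosts were, which is also a small share (0.902%). A single library (1 of 9) held all reads of 117 of the 174 (67.2%, against 61.9% of other circles), and 11 (6.32%, against 8.37%) had 10 reads or more. Exonic circles numbered 120 (69.0%, against 69.9% of other circles), sense overlapping ones 36 (20.7%, against 17.5%) and intronic ones 18 (10.3%, against 12.04%). The exonic circles had a median length of 638.5 bases, against 586 bases for other hosts, and 89 of the 174 (51.1%, against 56.1%) had an ID in circBase, a catalogue of circRNAs, by the authors' deposited table. These shares are descriptions with no test.

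Of the 85 hosts, 45 made 1 circle and 8 made 4 or more (9.41% of transporter hosts, against 16.9% of other hosts). Those 8 hosts were ABCC4, ATP13A3, ATP2B1, SLC12A3, ABCA5, SLC4A7, ABCG2 and SLC39A10, and they held 53 circles and 256 of the 697 reads (36.7%). In hosts with more than 1 circle, 62 of 129 circles (48.1%, against 55.7% for other hosts) shared a junction end with another circle of the host. By group, 9 of the 174 circles (5.17%, against 10.05% of other circles) were read in sh3-1, sh3-2 and shCtr alike. Reads were in sh3-1 alone for 33 circles (19.0%, against 23.8%), in sh3-2 alone for 41 (23.6%, against 19.3%) and in shCtr alone for 55 (31.6%, against 29.4%). A pair of groups held the reads of the rest: both hairpins for 4 circles (2.30%, against 4.12%), sh3-1 and shCtr for 13 (7.47%, against 6.87%) and sh3-2 and shCtr for 19 (10.9%, against 6.43%).

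Summed over all transporter circles, sh3-1 A, B and C had 51, 91 and 73 reads, sh3-2 had 80, 58 and 56, and shCtr had 106, 93 and 89. Per 1000 junction reads of the library this was 12.8 ± 2.71 in sh3-1, 16.5 ± 3.75 in sh3-2 and 17.1 ± 2.01 in shCtr (mean ± SD, n = 3 libraries each). The lowest library, sh3-1 A, had 10.2 per 1000, with a 95% Wilson interval of 7.73 to 13.3 that covers counting error only. The ranges of sh3-1 (10.2 to 15.6) and shCtr (15.3 to 19.3) overlapped narrowly, and those of sh3-2 (13.4 to 20.7) and shCtr overlapped widely. In bulk samples, fewer cells with a circle and less of it per cell cannot be told apart. Relative to shCtr the sum was 0.749 in sh3-1 and 0.964 in sh3-2, and leaving out each library in turn moved these to 0.669 to 0.827 and 0.842 to 1.05. As a description with no test, transporter circles detected per library numbered 22 to 30 in sh3-1, 26 to 37 in sh3-2 and 32 to 44 in shCtr.

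Of the 11 families, ABC was the one whose sum lay below shCtr in all libraries of both hairpins. The 33 circles of 10 ABC hosts had 8, 10 and 9 reads in sh3-1, 12, 11 and 10 in sh3-2 and 32, 20 and 30 in shCtr. This came to 1.62 ± 0.0754 per 1000 junction reads in sh3-1, 2.80 ± 0.364 in sh3-2 and 4.86 ± 1.14 in shCtr (SD, n = 3 each). Every library of either hairpin was below every shCtr library. How often sums over other groups of genes lie apart in this way was not counted. The separation is therefore not read as particular to ABC hosts. ABCC4 gave 59 of the 142 ABC reads. Without it, the other 9 hosts had 4, 4 and 2 reads in sh3-1, 10, 8 and 10 in sh3-2 and 16, 11 and 18 in shCtr, or 0.610 ± 0.233, 2.37 ± 0.234 and 2.66 ± 0.596 per 1000. The sh3-1 libraries then still lay below all shCtr libraries, while sh3-2 (2.12 to 2.58) and shCtr (1.98 to 3.09) overlapped. Of the 10 ABC hosts, 8 had a lower mean in sh3-1 and 6 in sh3-2 than in shCtr. Among the lower ones, 6 in sh3-1 and 2 in sh3-2 had reads in shCtr and none in the hairpin. For all 85 hosts the counts were 38 lower and 28 higher in sh3-1, and 36 lower and 37 higher in sh3-2. Both hairpins share the same 3 shCtr libraries, so their comparisons are not independent.

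Other families moved in other ways. The 18 circles of 5 P-type cation pump hosts, led by the calcium pump ATP2B1, had 10, 19 and 12 reads in sh3-1, 9, 4 and 5 in sh3-2 and 6, 6 and 7 in shCtr. Per 1000 junction reads the sh3-1 libraries (1.99 to 3.25) were all above the shCtr libraries (1.08 to 1.20), and sh3-2 (1.06 to 2.33) overlapped with shCtr. Without ATP2B1 the ranges of sh3-1 (0.597 to 1.88) and shCtr (0.360 to 0.859) overlapped. Circles of the inorganic ion exchangers and cotransporters (9 hosts, 25 circles) had 1, 10 and 9 reads in sh3-1, 4, 2 and 9 in sh3-2 and 22, 11 and 11 in shCtr. In that family sh3-1 ran from 0.199 to 1.71 and sh3-2 from 0.530 to 2.16 per 1000, against 1.891 to 3.999 in shCtr, so sh3-1 lay below all shCtr libraries and sh3-2 C did not. The vacuolar pump hosts had no circle read in sh3-1, 3 reads in each sh3-2 library and 0, 6 and 13 in shCtr A, B and C. The remaining families, namely metal ion carriers, amino acid, peptide and monocarboxylate carriers, mitochondrial carriers, nucleotide sugar carriers, flippases and sugar carriers, had overlapping groups in both comparisons. The mixed group of other solute carriers ran from 0.872 to 2.22 per 1000 in sh3-1 and from 0 to 2.33 in sh3-2, against 0 to 0.545 in shCtr. There sh3-1 lay above all shCtr libraries and sh3-2 overlapped with shCtr. No p-value was computed for these family sums, since the families were set with earlier results of these data known.

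**Figure D1:**
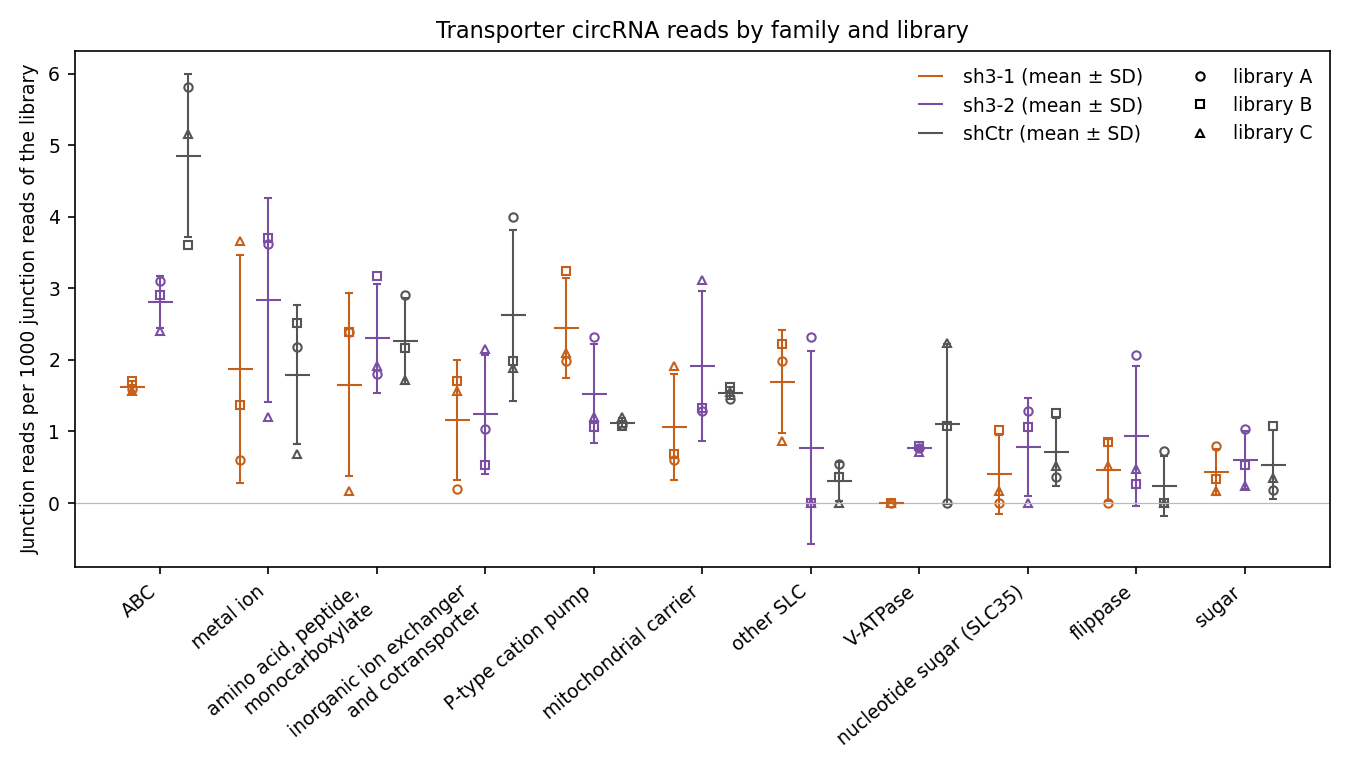
Junction reads of transporter circles per 1000 junction reads of the library (vertical axis) by transporter family (horizontal axis), for sh3-1, sh3-2 and shCtr. Open symbols are the libraries A, B and C and bars are the mean ± SD (n = 3); ABC circles averaged 1.62 in sh3-1, 2.80 in sh3-2 and 4.86 in shCtr, while most other families overlap between groups.

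The 20 most-read transporter circles held 218 of the 697 reads (31.3%), each with at least 7 reads and with reads in 2 to 8 libraries. At the top was an intronic circle of SLC38A1, a carrier of neutral amino acids such as glutamine (hg19 chr12:46655079-46655634, minus strand), with 10, 2 and 0 reads in sh3-1, 1, 0 and 2 in sh3-2 and 3, 2 and 1 in shCtr. Its reads in sh3-1 came mostly from library A, and the groups overlapped. The SLC39A10 circle chr2:196544756-196548630, of a zinc importer, had 0, 0 and 5 reads in sh3-1, 3, 0 and 0 in sh3-2 and 4, 3 and 3 in shCtr. It was read in every shCtr library but in 1 library of each hairpin. The exonic SLC45A4 circle chr8:142264088-142264728, of the proton-coupled sugar carrier family, was read in 8 libraries, the widest spread of any transporter circle. It had 2, 2 and 1 reads in sh3-1, 4, 2 and 1 in sh3-2 and 1, 4 and 0 in shCtr.

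Several of the 20 circles had unlike counts between groups or between libraries of a group. The SLC7A6 circle chr16:68300496-68309152, of a light chain of a cationic and neutral amino acid exchanger, had 0, 0 and 1 reads in sh3-1, 1, 1 and 2 in sh3-2 and 2, 3 and 3 in shCtr. The SLC39A8 circle chr4:103225474-103236987, of a carrier for zinc and manganese, had no read in sh3-1, 2, 2 and 1 in sh3-2 and 4, 2 and 0 in shCtr. A second SLC39A10 circle, chr2:196544756-196545774, starts at the same junction end as the first and had 3, 0 and 1 reads in sh3-1, 0, 6 and 0 in sh3-2 and none in shCtr. The first of these circles was read in every shCtr library and the other in none. Of the other circles in the 20, the intronic SLC25A17 circle (a peroxisomal carrier of the mitochondrial carrier family) had 7 of its 8 reads in sh3-2, 5 of them in library C. The ATP6V0A1 circle, of a membrane subunit of the vacuolar pump, was read in sh3-2 B and shCtr B only, with 3 and 4 reads. Circles of SLC30A6 (zinc), SLC4A7 (bicarbonate), SLC25A24 (the mitochondrial carrier of ATP-magnesium and phosphate) and SLC33A1 (acetyl-CoA, into the endoplasmic reticulum) had 7 or 8 reads each, in 3 libraries each.

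**Figure D2:**
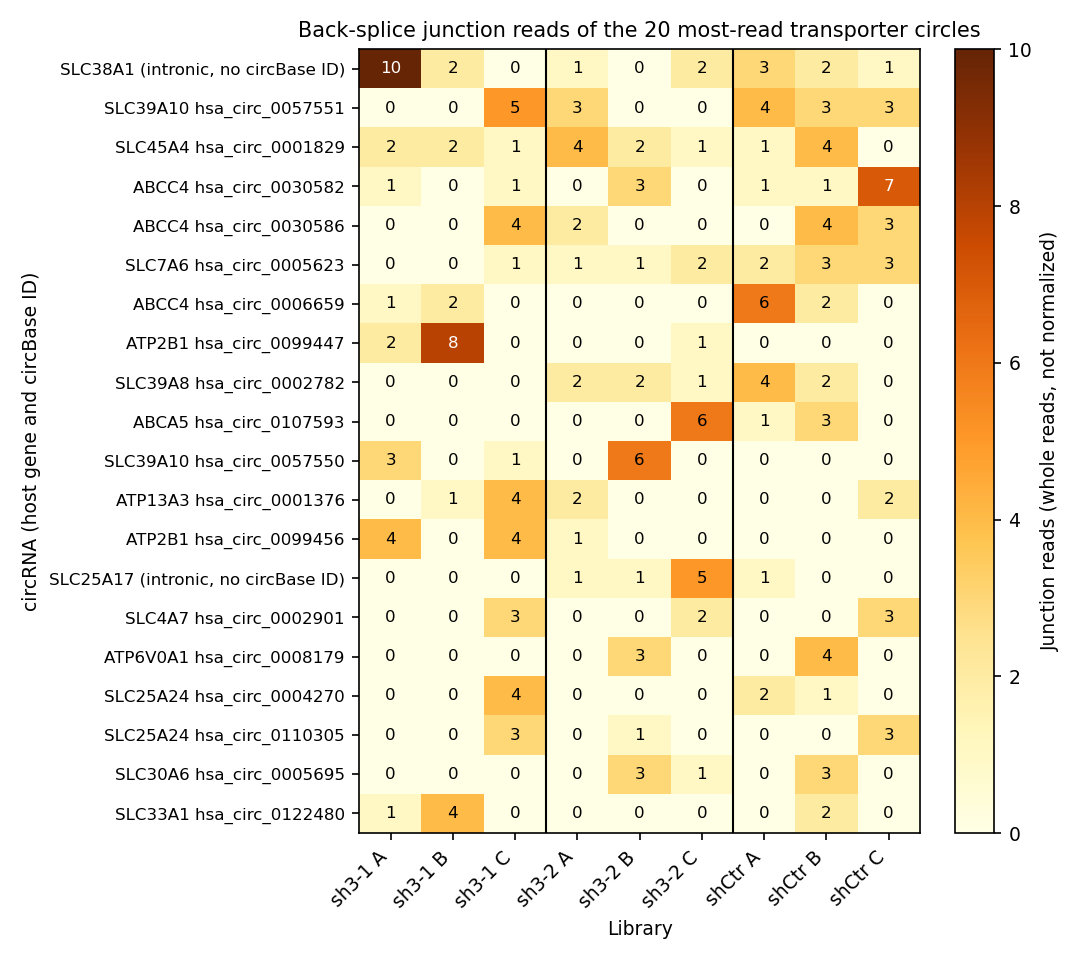
Back-splice junction reads, as whole reads without normalization, of the 20 most-read transporter circles (rows, with host gene and circBase ID) in the 9 libraries (columns, sh3-1 then sh3-2 then shCtr). Darker cells hold more reads, the highest being 10 in sh3-1 A for the intronic SLC38A1 circle. The SLC45A4 circle has a single cell with no read (1 of 9) and the ATP6V0A1 circle is read in 2 libraries.

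Each hairpin was compared with shCtr by edgeR's quasi-likelihood test on all circles with at least 10 reads over the 6 libraries, and a call was an adjusted p (Benjamini-Hochberg over all circles tested) under 0.05. For sh3-1, 7 transporter circles were among the 509 tested and none was called, where 0 of 509 were called over all hosts (0%), and at an unadjusted p under 0.05 there was 1 of 7, against 9.43% of all circles tested. The 7 were of ATP2B1, ABCC4 (3 circles), SLC39A10, SLC38A1 and SLC45A4. Their estimates were higher for 2 and lower for 5, with a median log2 fold change of -0.98, against -0.01 over all circles tested. Leaving out 1 library moved the transporter median to between -1.04 (without sh3-1 A) and -0.00 (without shCtr B, 2 higher and 2 lower), with -0.46 without sh3-1 B. For sh3-2, 6 transporter circles were among the 387 tested and none was called, where 1 of 387 (0.258%) was called over all hosts, and none of the 6 had an unadjusted p under 0.05, against 9.82% of all circles. These were of SLC39A10, SLC45A4, ABCA5, ABCC4, SLC7A6 and SLC39A8, with 3 higher, 3 lower and a median log2 fold change of -0.16, against -0.07 over all. With 1 library left out that median ran from -1.28 without shCtr B (2 circles tested, both lower) to 0.23 without sh3-2 B (2 higher, 2 lower). No transporter circle was called by DESeq2 either. The other 167 and 168 transporter circles had too few reads in those libraries for a test.

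The circle with an unadjusted p under 0.05 was ATP2B1 chr12:89996820-90005149, of the plasma membrane calcium pump that exports calcium from the cell. It had 2, 8 and 0 reads in sh3-1, 0, 0 and 1 in sh3-2 and none in shCtr. Set against a floor of 3 reads over the shCtr group, its sh3-1 reads were at least 3.39-fold higher, but library C had none and the groups overlapped at 0. In edgeR's quasi-likelihood test of sh3-1 its log2 fold change was 4.67 (SE 2.32, adjusted p = 0.502), which was not called. Another ATP2B1 circle, chr12:90013776-90029028, had 4, 0 and 4 reads in sh3-1, 1, 0 and 0 in sh3-2 and none in shCtr, at least 2.71-fold higher in sh3-1 against the same floor. With 9 reads in all it was not tested.

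In the authors' deposited table, 1 transporter circle in either comparison had p under 0.05 with a fold of at least 2. It was SLC39A8 chr4:103225474-103236987, lower in sh3-1, with a log2 fold of -4.22, p = 0.0440 and FDR 0.512 in the authors' deposited table. Circles lower by the same rule made up 0.641% of all those listed for sh3-1, and those higher 0.385%. For sh3-2 the shares were 0.331% lower and 0.346% higher, with no transporter circle among them.

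Junction reads were then summed over the circles of each host, since circles of a host come from the same transcript, and hosts were tested in the same way. In sh3-1, 15 transporter hosts were among the 895 tested, none was called (0% of all hosts), and 2 had an unadjusted p under 0.05, against 7.71% of all hosts (ABCA5 and SLC27A5). In sh3-2, 15 were among the 739 tested, none was called (0% of all hosts), and 1 had an unadjusted p under 0.05, against 9.07% of all hosts. DESeq2 also called no transporter host. Estimates were higher for 7 and lower for 8 hosts in sh3-1 (median log2 fold change -0.05, against 0.06 over all hosts) and higher for 4 and lower for 11 in sh3-2 (median -0.14, against -0.18 over all hosts). These balances turned when some single libraries were left out. In sh3-2 they were 7 higher and 6 lower (median 0.03) without sh3-2 A and 6 higher and 5 lower (median 0.15) without shCtr A. Lower estimates stayed in the majority without sh3-2 B (4 higher, 8 lower), sh3-2 C (5 and 9), shCtr B (5 and 7) or shCtr C (1 and 10). In sh3-1 the balances were 7 higher and 5 lower (median 0.36) without shCtr A and 5 higher and 8 lower (median -0.69) without sh3-1 C. All sh3-1 libraries lay below all shCtr libraries for 3 of the 15 hosts, ABCA5, ABCC4 and SLC7A6, where 6.59% of all tested hosts did, and above for none, where 5.70% of all hosts did. In sh3-2, 2 of the 15 lay below, ABCC4 and SLC12A3, against 7.85% of all hosts, and none above, against 5.68%. For single circles such a separation was found for 0 of 7 in sh3-1 (6.48% of all circles lower and 7.27% higher) and 0 of 6 in sh3-2 (6.98% lower and 5.68% higher). With 3 against 3 libraries an exact permutation test of a single host cannot go below p = 0.1.

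ABCC4, which exports cyclic nucleotides, prostaglandins and drugs, was the transporter host with the most circles (10) and the most reads (59). Its circles summed to 4, 6 and 7 reads in sh3-1, 2, 3 and 0 in sh3-2 and 16, 9 and 12 in shCtr. Every hairpin library had fewer than every shCtr library. Per 1000 junction reads this was 1.01 ± 0.213 in sh3-1, 0.437 ± 0.403 in sh3-2 and 2.20 ± 0.654 in shCtr (SD, n = 3 each). By edgeR's quasi-likelihood test the log2 fold change was -1.11 in sh3-1 (SE 0.71, adjusted p = 0.998) and -2.44 in sh3-2 (SE 0.87, adjusted p = 0.459), and neither was called, although the sh3-2 value was the 1 with an unadjusted p under 0.05. Leaving out each library in turn gave -1.429 to -1.005 in sh3-1 and -3.10 to -1.85 in sh3-2.

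The ABCC4 reads came from different circles in different libraries. All 10 circles lie on the minus strand between chr13:95686859 and chr13:95887088, and 4 of them share the junction end at position 95813443, with 33 of the 59 reads. The circle chr13:95813443-95822882 had 1, 2 and 0 reads in sh3-1, none in sh3-2 and 6, 2 and 0 in shCtr. The circle chr13:95813443-95840796 had 0, 0 and 4 reads in sh3-1, 2, 0 and 0 in sh3-2 and 0, 4 and 3 in shCtr. The circle chr13:95768176-95840796 had 1, 0 and 1 reads in sh3-1, 0, 3 and 0 in sh3-2 and 1, 1 and 7 in shCtr. For none of these 3 circles did the libraries of a hairpin and of shCtr lie apart. A further circle on the shared end, chr13:95813443-95830345, had 1, 2 and 2 reads in sh3-1 and none elsewhere, so that its sh3-1 libraries lay above shCtr, the opposite of the host sum.

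ABCA5, a lipid transporter of lysosomes and late endosomes, made 6 exonic circles. They summed to 0, 0 and 0 reads in sh3-1, 2, 4 and 6 in sh3-2 and 5, 7 and 3 in shCtr. No sh3-1 library held a read and every other library did, while sh3-2 and shCtr overlapped. Against a floor of 3 reads over the sh3-1 group, ABCA5 was at least 4.92-fold lower there. By edgeR's quasi-likelihood test the sh3-1 log2 fold change was -5.38 (SE 2.15, adjusted p = 0.529), which depends on the prior count and is no bound, and in sh3-2 it was 0.04 (SE 0.97, adjusted p = 0.991). The most-read ABCA5 circle, chr17:67270084-67280213, had no read in sh3-1, 0, 0 and 6 in sh3-2 and 1, 3 and 0 in shCtr. ABCG2, the multidrug exporter also called BCRP, made 5 circles with 2, 3 and 2 reads in sh3-1, 2, 1 and 2 in sh3-2 and 3, 1 and 6 in shCtr, with overlapping groups. ABCC1, an exporter of glutathione conjugates, had no read in sh3-1, 3, 1 and 0 in sh3-2 and 2, 0 and 4 in shCtr.

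Among the P-type pumps, the 7 circles of ATP2B1 summed to 7, 8 and 4 reads in sh3-1, 3, 2 and 4 in sh3-2 and 2, 4 and 2 in shCtr. Library C of sh3-1 equalled the highest shCtr count, and per 1000 junction reads it lay just under that shCtr library (0.698 against 0.720). The log2 fold change was 1.23 in sh3-1 (SE 1.14) and 0.52 in sh3-2 (SE 1.36), with adjusted p = 0.998 and 0.991 by edgeR's quasi-likelihood test. ATP13A3, a polyamine transporter, made 8 circles with 3, 6 and 8 reads in sh3-1, 4, 0 and 1 in sh3-2 and 4, 2 and 5 in shCtr. Its groups overlapped. Of the vacuolar pump, ATP6V0A1 had no read in sh3-1, 0, 3 and 0 in sh3-2 and 0, 4 and 4 in shCtr.

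**Figure D3:**
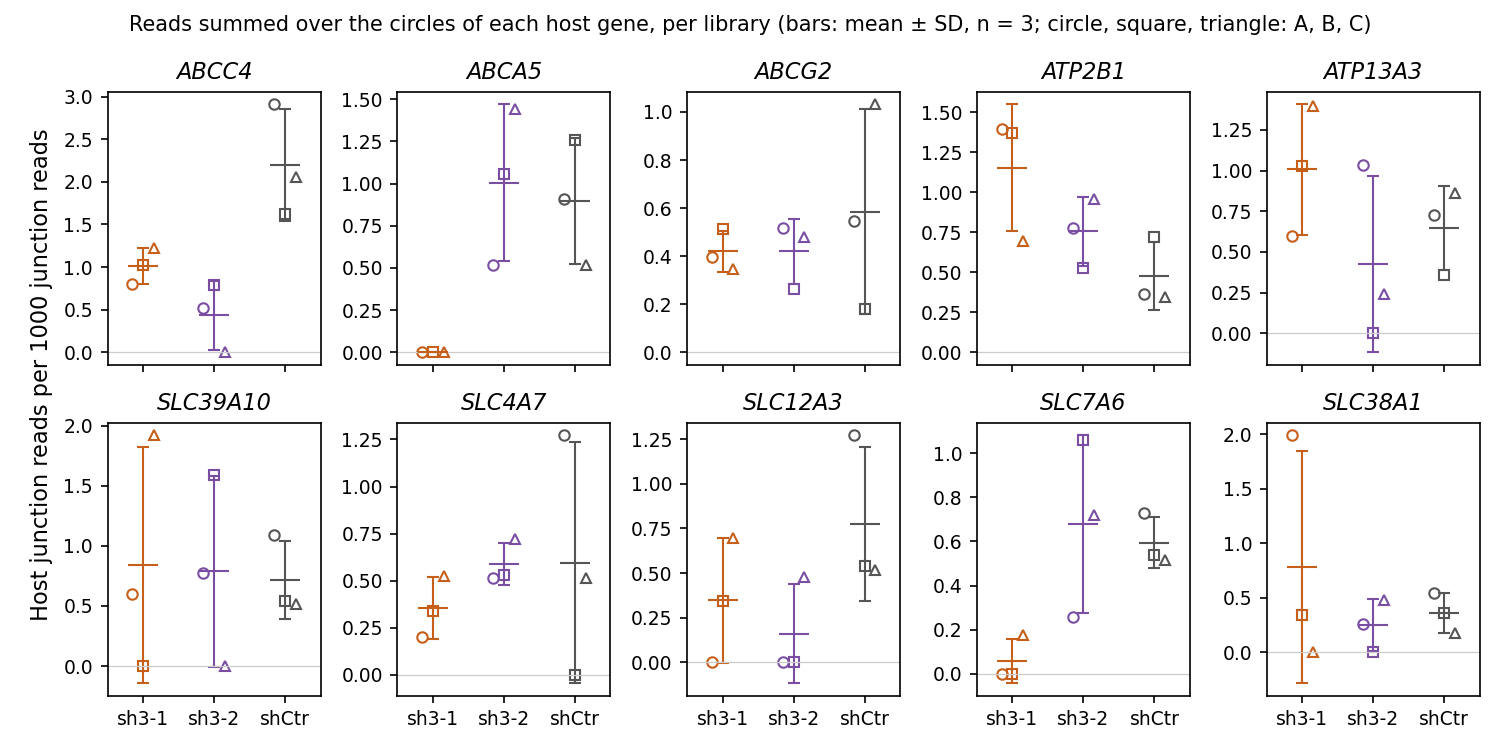
Junction reads summed over the circles of a host, per 1000 junction reads of the library (vertical axes, scaled per panel), for the 8 hosts with 4 or more circles and for SLC7A6 and SLC38A1, in sh3-1, sh3-2 and shCtr. Points are libraries A, B and C and bars the mean ± SD (n = 3); ABCC4 averaged 1.01 in sh3-1 and 0.437 in sh3-2 against 2.20 in shCtr, and ABCA5 was at 0 in all 3 sh3-1 libraries.

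SLC12A3, the sodium-chloride cotransporter best known from the distal tubule of the kidney, made 7 circles. They summed to 0, 2 and 4 reads in sh3-1, 0, 0 and 2 in sh3-2 and 7, 3 and 3 in shCtr. All sh3-2 libraries were below all shCtr libraries, and sh3-1 C was not. The log2 fold change was -1.14 in sh3-1 (SE 1.51) and -2.17 in sh3-2 (SE 1.60), with adjusted p = 0.998 and 0.893 by edgeR's quasi-likelihood test. SLC4A7, a sodium-bicarbonate cotransporter, made 6 circles with 1, 2 and 3 reads in sh3-1, 2, 2 and 3 in sh3-2 and 7, 0 and 3 in shCtr. The mitochondrial sodium-calcium exchanger SLC8B1 had no read in sh3-1, 2, 0 and 0 in sh3-2 and 3, 5 and 0 in shCtr.

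Among carriers of amino acids and metals, SLC7A6 summed to 0, 0 and 1 reads in sh3-1, 1, 4 and 3 in sh3-2 and 4, 3 and 3 in shCtr. All sh3-1 libraries were below all shCtr libraries, with a log2 fold change of -2.94 (SE 1.98, adjusted p = 0.998 by edgeR's quasi-likelihood test), and sh3-2 overlapped with shCtr. SLC39A10 summed to 3, 0 and 11 reads in sh3-1, 3, 6 and 0 in sh3-2 and 6, 3 and 3 in shCtr, and 30 of its 35 reads were on 3 circles that share the junction end at position 196544756. SLC39A8 had no read in sh3-1, 2, 4 and 1 in sh3-2 and 4, 4 and 0 in shCtr. SLC41A2, a magnesium carrier, had 0, 0 and 5 reads in sh3-1, 0, 1 and 3 in sh3-2 and 2, 2 and 1 in shCtr. For SLC25A24 the reads were 0, 0 and 7 in sh3-1, 0, 1 and 3 in sh3-2 and 2, 1 and 3 in shCtr, so that sh3-1 C alone gave its sh3-1 total. SLC45A4 had 2, 2 and 1 reads in sh3-1, 4, 2 and 1 in sh3-2 and 1, 6 and 2 in shCtr over its 3 circles.

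SLC27A5, an acyl-CoA synthetase of bile acid and fatty acid metabolism, had 4, 6 and 0 reads in sh3-1 and none in sh3-2 or shCtr. Its log2 fold change in sh3-1 was 4.81 (SE 2.24, adjusted p = 0.529 by edgeR's quasi-likelihood test), which depends on the prior count. The reads came from a pair of intronic circles of 224 bases each, chr19:58999362-58999585 and chr19:58999497-58999720, which are shifted by 135 bases, had the same counts of 2, 3 and 0 and may share reads. Both are among the 5 transporter circles that sh3-1 A and B share with no other library, and the part of that sharing in the result was not tested. Without either of these libraries SLC27A5 fell under the filter. SLC33A1 had 6, 4 and 0 reads in sh3-1, 2, 0 and 0 in sh3-2 and 1, 2 and 0 in shCtr, with a log2 fold change of 1.68 in sh3-1 (SE 1.75, adjusted p = 0.998 by edgeR's quasi-likelihood test).

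Genes of transport outside the naming rule were read for comparison. Of 40 listed genes, among them other P-type ATPases, the MFSD family and regulators such as the kinases WNK1 and OXSR1 that act on cation-chloride cotransporters, 15 had circles, with 34 circles and 120 reads. Per 1000 junction reads they had 2.98 ± 0.517 in sh3-1, 1.80 ± 0.592 in sh3-2 and 2.92 ± 0.957 in shCtr (SD, n = 3 each). The ranges overlapped in both comparisons (2.39 to 3.31 in sh3-1 and 1.20 to 2.38 in sh3-2, against 1.89 to 3.78 in shCtr).

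The m6A values are the authors' comparison of sh3-2 with shCtr, with a fold and an FDR per site in the authors' deposited table and no value per library. The 234 sites lay on 62 transporter circles of 49 hosts, and 15 of the sites were on circles that had no junction counts. Site length had a median of 199 bases. By sign, 112 sites were higher and 122 lower in sh3-2 in the authors' deposited table, with a median log2 fold of -0.03, against -0.01 over all 14885 sites. With an FDR under 0.05 there were 19 sites (8.12%, where 9% of all sites were called), on 14 circles of 13 hosts, by the authors' deposited table. Of these, 15 rose (6.41%, against 4.47% of all sites) and 4 fell (1.71%, against 4.53% of all sites). Without the 4 called sites of ATP6V1E2 the counts were 11 higher and 4 lower. Sites on a circle lie on the same transcript and are not independent, so no test was made over them.

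Sites were then read by the class of the circle. On sense overlapping transporter circles, which follow the strand of a gene but not its exon borders, 80 of 133 sites were higher in sh3-2 (60.2%, against 48.3% on such circles of other hosts) in the authors' deposited table. There 12 sites were called higher and none lower, where other hosts had 313 higher and 325 lower of 7495. On exonic transporter circles 29 of 94 sites were higher (30.9%, against 48.2% for other hosts), by the authors' deposited table. There 3 sites were called higher and 4 lower (3.19% and 4.26%, against 4.71% and 4.82% for other hosts). The median log2 fold of the 94 sites was -0.20, against -0.01 for exonic circles of other hosts. Without SLC12A7, the exonic host with most sites, 24 of 71 were higher (33.8%). Without ATP6V1E2, the sense overlapping host with most sites, 60 of 105 were higher (57.1%). Counted by circle, the median fold was above 1 for 18 of 25 sense overlapping circles (72.0%, against 47.1% for other hosts) and for 8 of 32 exonic circles (25%, against 46.1%). The 7 sites on intronic circles held no call. These shares are descriptions with no test.

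**Figure D4:**
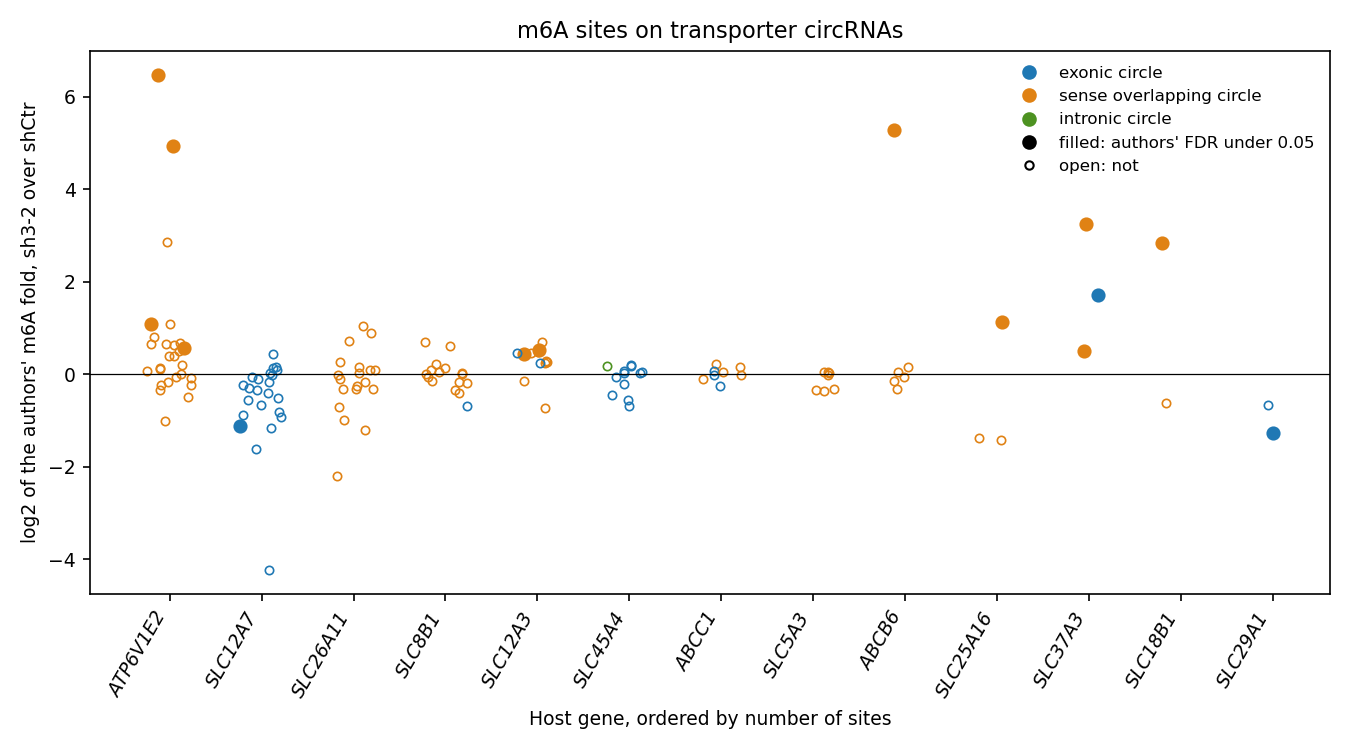
The log2 of the authors' m6A fold, sh3-2 over shCtr (vertical axis), for each site on the transporter hosts that have 7 or more sites, or a called site with a fold of at least 2 (horizontal axis, ordered by number of sites). Filled points have an authors' FDR under 0.05 and colours give the class of the circle; the called points of sense overlapping circles are all above 0, and those of exonic circles lie on both sides.

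ATP6V1E2, a subunit of the soluble domain of the vacuolar pump, held the most sites. A sense overlapping circle of 21.864 kb (chr2:46746729-46768592, minus strand) carried 28, of which 20 were higher and 8 lower in sh3-2 in the authors' deposited table. The 4 called sites all rose, and they lie 2.68, 5.33, 7.22 and 13.7 kb from the 5′ end of the circle along the genome. In the authors' deposited table the site chr2:46754562-46755240 rose 2.13-fold with FDR 1.17e-06. The site chr2:46765742-46766080 had a fold of 88.0 with FDR 6.15e-06 and chr2:46763162-46763360 a fold of 30.8 with FDR 0.0406 in the authors' deposited table. The signal of each group behind a fold is not given. Whether folds this large rest on almost no signal in shCtr was not tested, so their size is not read as a measured change. The site chr2:46760802-46761940 rose 1.48-fold there (FDR 0.00138). This circle had 2 junction reads in all, both in shCtr C.

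SLC12A7, a potassium-chloride cotransporter, carried 23 sites on an exonic circle of 36.778 kb, and 18 were lower and 5 higher in sh3-2 in the authors' deposited table. Its called site, chr5:1064198-1064367, fell 2.18-fold in the authors' deposited table with FDR 7.75e-05. The lowest fold on this circle, 18.7-fold lower at chr5:1085562-1085588, had an FDR of 0.207 there, and the signal of each group behind it is not given. SLC26A11, of the anion exchanger family, had 19 sites (8 higher, 11 lower), and SLC8B1 had 16 (9 higher, 7 lower), with none called in the authors' deposited table. SLC12A3 and SLC45A4 had 12 each, of which 10 and 7 were higher. The 5 hosts with the most sites (with SLC12A3 as the fifth) held 98 of the 234 (41.9%).

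**Figure D5:**
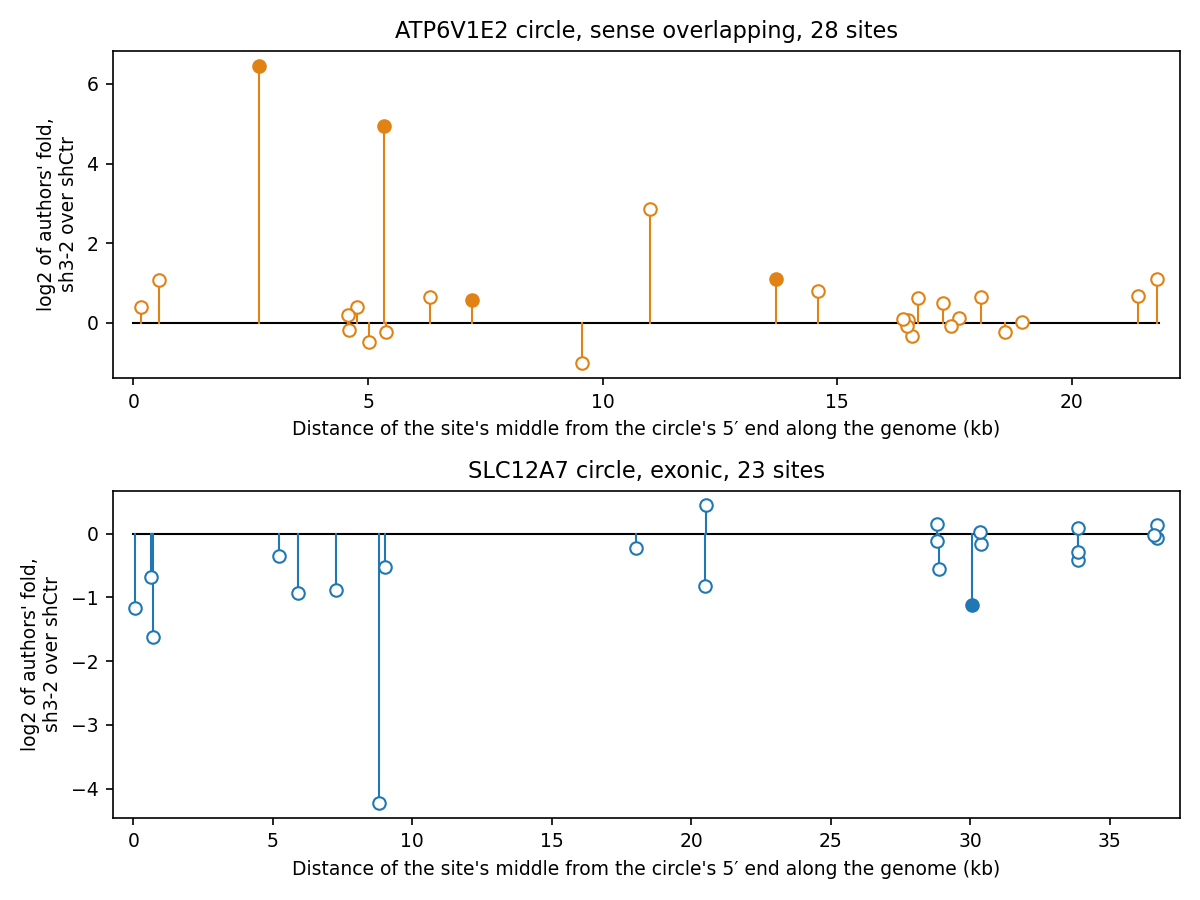
Position of each m6A site as the distance of its middle from the 5′ end of the circle along the genome, in kb (horizontal axis), against the log2 of the authors' fold, sh3-2 over shCtr (vertical axis), for the ATP6V1E2 circle (28 sites) and the SLC12A7 circle (23 sites). Filled points have an authors' FDR under 0.05; the 4 called ATP6V1E2 sites are spread from 2.68 to 13.7 kb and the SLC12A7 one lies at 30.1 kb.

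Further sites rose on hosts of several families, by the authors' deposited table. SLC37A3, an endolysosomal carrier related to sugar phosphate exchangers, had all of its 3 sites called higher, with the largest folds 9.49 (FDR 0.000537) on a sense overlapping circle and 3.30 (FDR 0.00363) at a site of 5 bases on an exonic one. ABCB6, a porphyrin transporter, had 1 of 6 sites called, chr2:220082122-220082320, with a fold of 38.9 and FDR 0.00715 in the authors' deposited table. As for the largest ATP6V1E2 folds, whether it rests on almost no signal in shCtr was not tested. SLC18B1, a vesicular polyamine carrier, had a site at chr6:133115122-133115500 with a fold of 7.11 (FDR 0.00325). SLC25A16, a mitochondrial carrier, had a site with a fold of 2.17 (FDR 0.00116), while its other 2 sites were lower and not called. SLC41A2 had a called site with a fold of 1.80 (FDR 0.000270), and the other called sites that rose had folds of 1.44 or less in the authors' deposited table.

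The 4 sites that fell by the authors' deposited table were all on exonic circles. Beside SLC12A7 they were on SLC29A1, a nucleoside carrier, which fell 2.41-fold at chr6:44197127-44197208 (FDR 0.000577). The taurine carrier SLC6A6 fell 1.98-fold at chr3:14485132-14485300 (FDR 1.68e-05), a site at the 5′ end of its circle on the plus strand. SLC25A24 fell 1.21-fold at chr1:108728462-108728576 (FDR 0.0210), a site at the 5′ end of its circle on the minus strand. Over all transporter sites 69 (29.5%, against 23.3% for other hosts) touched an end of their circle. The site nearest outside the threshold was on SLC16A6, a monocarboxylate carrier, with FDR 0.0518 in the authors' deposited table. The related transport genes outside the naming rule had 23 sites on 6 hosts, with none called.

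m6A and junction counts met in few reads. Of the 14 circles with a called site, 13 had junction counts, with 2 to 7 reads each over all 9 libraries. For 11 of them all reads were in 1 library, and 4 (of SLC12A3, SLC33A1, SLC18B1 and SLC37A3) had no junction read in any sh3-2 or shCtr library; these 4 are named after their values were seen. MeRIP fragments of these sites can come from the circle or from linear RNA of the same locus, which cannot be told apart with the deposited values, and whether the fold is corrected for input is not stated in the deposited sheets.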

How the data were processed

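Members, families and lists were chosen with earlier results of these data known. The submitters' processing notes name build hg19 with STAR 2.5.1b, edgeR 3.16.5 and cutadapt 1.9.3. Callers of circles and peaks were not given in the sources used here. Ribosomal RNA was depleted and directional libraries were read in pairs of 150 bp, per the labels' protocols, and no step removing linear RNA is named there. The deposited circRNA sheets hold whole-number counts of junction reads per circle and library, not normalized, per the file headers. The authors also give a log2 fold change, a p-value and an FDR per circle, and per m6A site they give a ratio (the fold, never under 1, with its direction apart), a p-value, an FDR and a length in bases. A total of 24 per-library log2 columns of the deposited sheets were not used.

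A circle missing from a hairpin's sheets was given 0 reads there. The 15 circles with no host name (42 reads, 0.0927%) stayed out of host sums. Circles, then host sums, with at least 10 reads over 6 libraries were tested with edgeR 4.0.16 in R 4.3.3 (TMM, totals of all junction reads, glmQLFit robust, two-sided), on counts as deposited, each hairpin against shCtr. The fits were run on simulated data with 8-fold changes, at the depth of these libraries and at a far greater depth with less spread. The outcome is not given here, so it does not show which changes these libraries could detect. Intervals are 95% Wilson intervals and, like floors (3 counts, or 0.0513% to 0.0795% of a library), cover counting error only. Alternatives were DESeq2 1.42.0, its size factors, no TMM, other filters, a replicate block and each library left out. Tables were joined in Python 3.11.15 (pandas 2.3.3, numpy 2.4.6, scipy 1.17.1). Named members are every tested circle and host, the 20 most-read circles, hosts with 4 or more circles, circles past the authors' thresholds, called m6A sites (up to 10 each way) and the 5 hosts with most sites. Values of 1 host gene are not reported here by name.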

Additional observations from a re-analysis of the deposited data

How the results depend on the processing

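No transporter circle or host was called in any of the 4 count comparisons under the DESeq2 test, DESeq2 size factors, library totals without TMM, no filter, the filterByExpr filter (which left no transporter circle or host to test), the replicate block or any library left out. Library totals without TMM moved the median log2 fold change of all circles in sh3-1 from -0.01 to 0.21 and that of all hosts in sh3-2 from -0.18 to -0.06. The SLC45A4 circle in sh3-1 turned from -0.23 to 0.019 without TMM and to 0.37 with the replicate block, and SLC4A7 in sh3-2 turned from -0.14 to 0.39 with the replicate block; the cause was not tested. With library letters as a replicate block 0 transporter circles and hosts were called. The labels do not say whether the letters pair the samples. Correlations of same-letter deviations were -0.04, -0.02 and 0.02 for sh3-1 and 0.03, -0.01 and -0.00 for sh3-2. With so few reads per circle, such correlations cannot show whether the letters pair samples. Leaving out 1 library turned the sign, in sh3-2, of ABCC1 (-0.64 to 0.43), SLC4A7 (-0.70 to 1.14), SLC25A24 (up to 0.46) and the SLC39A8 circle (-0.45 to 0.46), none of them called. Asking a fold of at least 2 beside the authors' FDR left 10 m6A sites, 8 higher and 2 lower. The higher ones include the ATP6V1E2 sites with folds of 88.0, 30.8 and 2.13, which lie on the same circle. The share of all sites past that cut is not given here, so this balance is not read as a result about transporters. The leave-one-out values of the transporter share of reads were added after seeing the data. Depth limits every count result: most transporter circles had too few reads for a test.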
